A study of Mus musculus with 4 samples.

Results

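Fragments at promoters and in the remaining windows around transcription start sites (TSSs) were followed in nuclei of the mouse entorhinal cortex. Both measures come from single-cell ATAC sequencing, in which the Tn5 transposase cuts and tags accessible chromatin and a droplet barcode assigns each fragment to a nucleus. The deposited tables count, for each barcode, the usable unique fragments that fall in a region class, and 2 of the 6 classes, promoters and TSSs, are described here. A nucleus is a barcode that the authors called as a cell and that held at least 5000 usable fragments, which kept 3951 of 4086 called barcodes. Each nucleus has 3 measures. The promoter share is promoter fragments over usable fragments. The remaining TSS share is TSS fragments minus promoter fragments, again over usable fragments. The promoter to TSS ratio is promoter fragments over TSS fragments. The promoter share and the remaining TSS share add up to the TSS share.

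All animals were wild-type C57Bl6 mice at postnatal day 56, and the tissue was microdissected and flash frozen. The medial entorhinal cortex (MEC) gave 2 libraries and the lateral entorhinal cortex (LEC) another 2, taken on both sides of the brain from 2 mice in all. No label ties a library to a mouse, so the spread between the 2 libraries of a region may be technical. The study asked which excitatory cell types these areas have in common. The tables name no gene, peak or cell type, so neither the tissue nor any cell type could be checked against marker genes, and no single promoter can be named or its sequence shown.

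A promoter is the stretch of DNA at the start of a gene where transcription factors and RNA polymerase assemble, and in active genes it is usually depleted of nucleosomes and open to Tn5. TSS windows in an annotation are drawn around the start of every listed transcript, including transcripts that a given cell does not use, so they can hold both open promoters and closed chromatin. Signal at TSSs is widely used as a quality measure of ATAC libraries, and its level also differs between cell types.

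MEC replicate 1 held 1019 nuclei, MEC replicate 2 held 936, LEC replicate 1 held 1040 and LEC replicate 2 held 956. Libraries had between 114232167 and 146431311 read pairs. The median nucleus had 61894.5 ± 1855 usable fragments in MEC and 45963 ± 259 in LEC (SD, n = 2 for this and all later group values). Duplicates made up 28.4% ± 0.297 of duplicate plus usable pairs in MEC and 20.6% ± 0.580 in LEC, so sequencing depth went with the region. Over the 6 pairs of libraries, 7 nuclei shared their barcode with a nucleus of the other library, and leaving such barcodes out gave a promoter difference of 1.80 percentage points where 1.79 was found with them. Region comparisons printed below with a p used a two-sided exact permutation test over the 4 libraries, unless another is named. Its smallest possible p is 0.333, so none could pass 0.05. Those without a p are descriptions.

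The higher TSS share of MEC went with its promoters. The net remaining share was slightly lower in MEC. The direction turned for TSS fragments without a promoter. Their difference was 0.0288 percentage points when estimated with 1 overlap of promoters and TSS windows for all libraries. The promoter share was 13.2% in MEC replicate 1 and 13.3% in MEC replicate 2, against 11.3% and 11.5% in LEC replicates 1 and 2. The 2 MEC values were thus the highest of the 4. The group values were 13.2% ± 0.0729 and 11.4% ± 0.0869, a difference of 1.79 percentage points or 1.16-fold. The remaining TSS share was 5.67% and 5.66% in the MEC pair of libraries and 5.79% and 5.81% in the LEC pair. Here the 2 MEC values were the lowest. The group values were 5.67% ± 0.0107 against 5.80% ± 0.0105, a difference of -0.135 percentage points, which exceeds 10 times the SD of either region but is a ratio of only 0.977. It is a net value because a promoter fragment need not lie in a TSS window.

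As the 2 shares add up to the TSS share, its difference of 1.66 percentage points was the sum of a promoter difference of 1.79 and a net remaining difference of -0.135. The promoter difference was therefore 108% of the TSS difference, with values from 107% to 109% over the 4 pairs of 1 MEC and 1 LEC library. This is a net ratio, since promoter fragments outside TSS windows are not part of the TSS share. The promoter to TSS ratio was 0.699 and 0.701 in the MEC pair and 0.662 and 0.664 in the LEC pair, with group values of 0.6997 ± 0.00156 and 0.663 ± 0.00130. For the 3 measures and the TSS share the exact permutation test gave p = 0.333, and p = 0.381 after Benjamini-Hochberg adjustment over 8 comparisons. Counting error was small, since 95% Wilson intervals reached at most 0.00926 percentage points to either side of a promoter share. With all read pairs as the denominator, into which the more frequent duplicates of MEC enter, the promoter difference was 0.25 and that of the remaining windows -0.550 percentage points, so that the TSS share turned to -0.300.

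**Figure D1:**
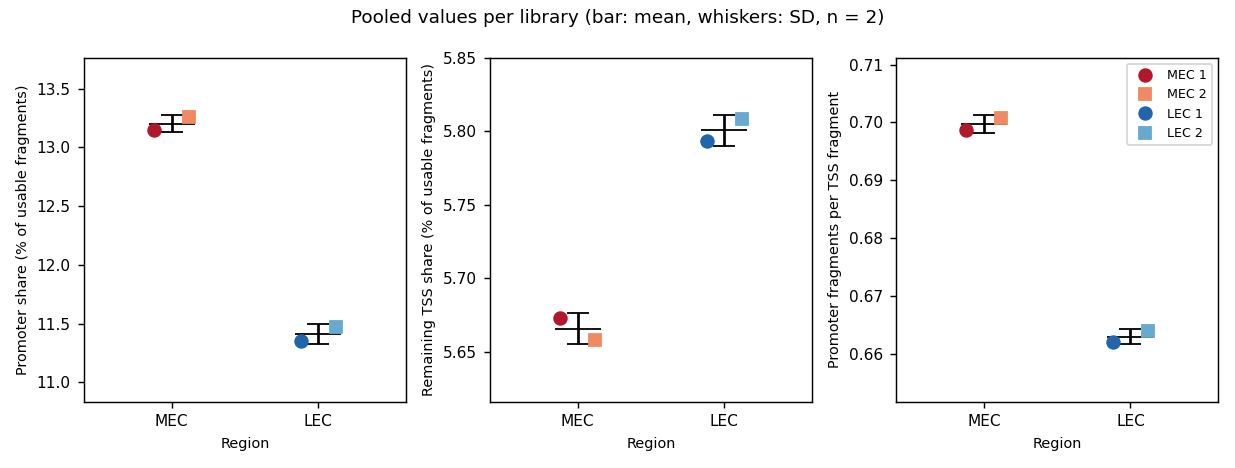
Pooled promoter share, remaining TSS share and promoter to TSS ratio of each library, by region, with the region mean (bar) and SD (whiskers, n = 2). The axes do not start at 0. MEC lies higher for the promoter share (13.2% against 11.4%) and the ratio, and lower for the remaining TSS share (5.67% against 5.80%).

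Promoters did not lie wholly within TSS windows, and barcodes with exactly 1 usable fragment show how they overlap. In such a barcode the class counts describe that fragment alone. There were between 113622 and 135963 of these barcodes per library. They are not nuclei and may hold fragments of many sources. Of their promoter fragments, 8.81% and 8.90% lay outside every TSS window in the MEC pair and 9.53% and 9.27% in the LEC pair. The 95% Wilson intervals together ran from 8.39% to 10.1%. Of their TSS fragments, 37.5% and 37.8% lay outside promoters in MEC and 42.5% in both LEC libraries. TSS fragments were fewer than promoter fragments in 3329 to 5151 barcodes per library, none of them above 228 usable fragments, and in no nucleus.

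Fragments in TSS windows without a promoter resembled the rest of the genome more than they resembled promoters. Of single fragments in both a TSS window and a promoter, 81.0% ± 0.136 in MEC and 80.3% ± 0.121 in LEC lay in a DNase-sensitive region, that is, in chromatin known to be open to digestion by DNase. Promoter fragments outside TSS windows came close, at 75.3% ± 1.03 and 74.7% ± 1.001. For TSS fragments without a promoter the share was only 32.9% ± 0.182 in MEC and 30.9% ± 0.275 in LEC, against 27.1% ± 0.261 and 24.9% ± 0.0981 of fragments in neither class.

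Peaks gave the same order. They held 92.0% ± 0.537 of fragments in both classes in MEC and 85.6% ± 0.654 in LEC, but 26.5% ± 0.617 and 17.5% ± 0.970 of TSS fragments without a promoter, close to the 22.3% ± 0.912 and 13.7% ± 0.441 of fragments in neither class. It is not stated whether peaks were called per library, which can set the difference between regions here. Enhancers, distal regulatory elements, hardly overlapped promoters, with 0 to 3 of the single fragments in both classes. They held 21.7% to 23.4% of TSS fragments without a promoter. Of fragments in neither class they held 23.2% to 25.7%, the higher value in each library. No promoter fragment outside a TSS window lay in an enhancer among 1091 to 1477 per library, and 3 counts would be 0.203% to 0.275% of them. How the classes were defined is not given in the sources used here, and the definitions alone can set this overlap. The blacklist, which marks regions of artefactual signal, held 2.45% to 3.24% of TSS fragments without a promoter and at most 0.0719% of fragments in neither class.

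**Figure D2:**
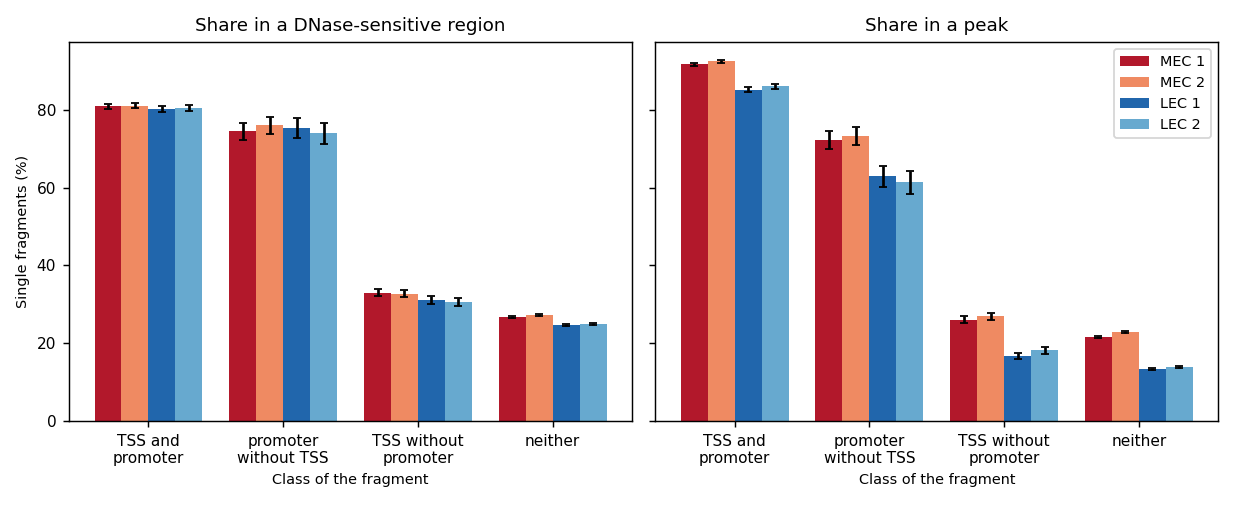
Share of single fragments, from barcodes with 1 usable fragment, that lie in a DNase-sensitive region (left) or a peak (right), by whether the fragment overlaps a TSS window, a promoter, both or neither. Bars are libraries and whiskers 95% Wilson intervals. TSS fragments without a promoter stand near fragments in neither class and far below promoter fragments.

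The same single fragments also split the region difference. Those in both classes were 11.2% and 11.3% of fragments in the MEC pair and 9.28% and 9.39% in the LEC pair, while those in a TSS window without a promoter were 6.74% and 6.88% in MEC and 6.87% and 6.94% in LEC. The first pair of groups did not overlap and the second did. Because some promoter fragments lie outside TSS windows, the remaining TSS share of a nucleus is a net value that falls short of the TSS fragments without a promoter and falls further short where promoter fragments are many. With the overlap of each library's single fragments applied to its nuclei, TSS fragments without a promoter were 6.83% ± 0.00334 of usable fragments in MEC against 6.87% ± 0.00171 in LEC, which is -0.0383 percentage points apart (exact permutation p = 0.333). With the mean overlap of 9.13% for all libraries the difference became 0.0288. The direction of the difference in TSS fragments without a promoter thus depended on the overlap assumed. That difference would be 0 if 7.52% of promoter fragments lay outside TSS windows in every library. Whether nuclei have the overlap of single fragments was not tested.

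The promoter share fell with the number of usable fragments of a nucleus, and the net remaining share rose slightly. Per doubling of usable fragments the promoter share changed by -4.26 and -3.98 percentage points in the MEC pair and by -3.94 and -3.85 in the LEC pair. The remaining TSS share changed by 0.219 and 0.227 in MEC and by 0.134 and 0.155 in LEC. Slopes of the TSS share ran from -4.04 to -3.70, so the promoter slopes were between 104% and 106% of them. This is again a net ratio, since promoter fragments outside TSS windows are not part of the TSS share. The promoter to TSS ratio changed by -0.0589 and -0.0558 per doubling in MEC and by -0.0615 and -0.0592 in LEC.

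Over the nuclei of a library, Spearman's rho with usable fragments was between -0.758 and -0.714 for the promoter share, between 0.191 and 0.320 for the remaining TSS share and between -0.720 and -0.682 for the ratio (936 to 1040 nuclei). These describe nuclei that share a library, and usable fragments are also the denominator of both shares. Against the estimated complexity of a nucleus, which is the number of distinct fragments computed from its duplicates, rho for the promoter share was stronger, between -0.829 and -0.803. The net remaining slope need not be the slope of TSS fragments without a promoter. The sign of the latter depended on the overlap assumed for nuclei, which was not measured in them. For TSS fragments without a promoter, estimated as above from single fragments, the slopes were -0.156 and -0.128 in MEC and -0.242 and -0.203 in LEC, all of the opposite sign. The slope of this estimate would be 0 if between 3.39% and 5.69% of promoter fragments, depending on the library, lay outside TSS windows.

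Whether the promoter trend itself was steeper in MEC could not be settled. The slopes were -4.12 ± 0.193 in MEC and -3.89 ± 0.0612 in LEC, and the difference of -0.225 (exact permutation p = 0.333) was -0.0884 without MEC replicate 1 and -0.362 without MEC replicate 2. It became 0.414 with all called barcodes and 0.229 against all read pairs. The slope of the remaining share was 0.223 ± 0.00540 in MEC against 0.144 ± 0.0148 in LEC (exact permutation p = 0.333), and the difference of 0.0787 became -0.0161 with all called barcodes. For the ratio the difference of slopes was 0.00302 (exact permutation p = 0.333), and 0.00148 without MEC replicate 2, 0.00188 without LEC replicate 1 and 0.00455 without MEC replicate 1. It was 0.0110 with all called barcodes and turned to -0.00219 against complexity and to -0.0147 as a difference of Spearman's rho.

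The fall of the promoter share was not even over the range of depth. In MEC it was 19.6% ± 1.56 between 5000 and 10000 usable fragments, 20.5% ± 1.75 between 10000 and 20000, and 20.7% ± 0.585 between 20000 and 40000. It was then 15.9% ± 0.646 between 40000 and 60000, 13.0% ± 0.568 between 60000 and 80000, and 10.5% ± 0.0204 from 80000 on. In LEC the fall began earlier, with 20.5% ± 0.262, 18.8% ± 0.351, 16.1% ± 0.458, 11.1% ± 0.304, 9.67% ± 0.280 and 8.77% ± 0.0456 in the same classes. The remaining TSS share ran from 5.12% ± 0.195 in the first class to 5.82% ± 0.00234 in the last in MEC, and from 5.22% ± 0.0140 to 5.89% ± 0.0376 in LEC. Its class means thus stayed within 1 percentage point, while those of the promoter share covered more than 10. The ratio fell from 0.792 ± 0.0193 to 0.643 ± 0.000353 in MEC and from 0.797 ± 0.00164 to 0.598 ± 0.000285 in LEC.

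**Figure D3:**
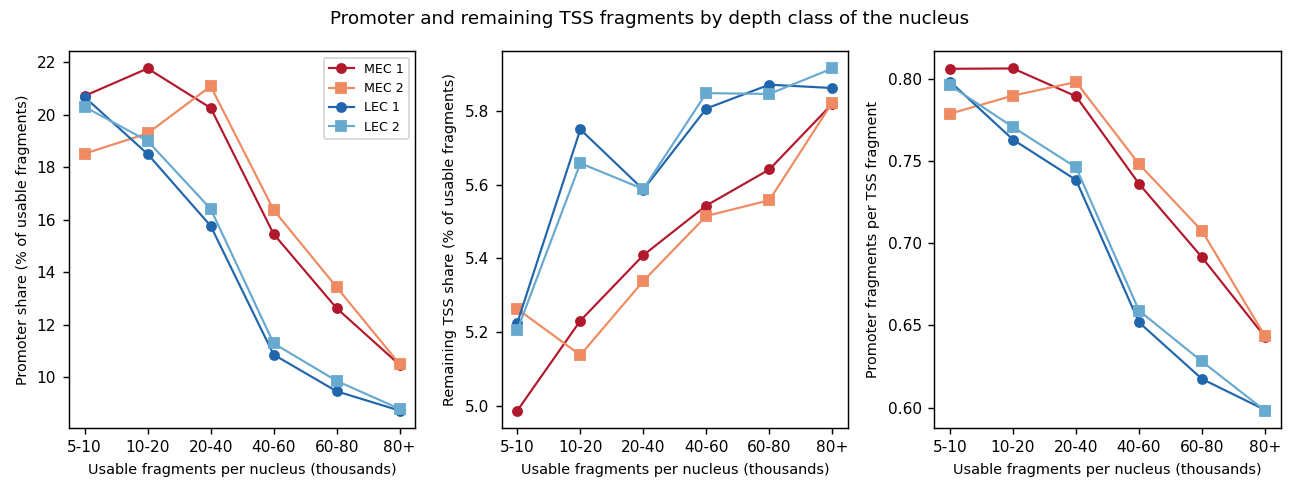
Promoter share, remaining TSS share and promoter to TSS ratio by class of usable fragments per nucleus, 1 line per library (axes do not start at 0). The promoter share of MEC stays near 20% up to 40000 fragments, where LEC has 16.1%, and the remaining TSS share varies by less than 1 percentage point in either region.

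Within classes of usable fragments the region difference at promoters varied. From the shallowest to the deepest class it was -0.867, 1.77, 4.58, 4.83, 3.37 and 1.72 percentage points, against 1.79 over all nuclei. It was thus larger than over all nuclei in the 3 classes between 20000 and 80000 fragments, by ratio up to 1.44-fold, and smaller or of the opposite sign in the others. The MEC libraries were the higher ones in 5 of 6 classes. In the class from 5000 to 10000 fragments, where the smallest library had 20 nuclei, the libraries overlapped (20.7% and 18.5% against 20.7% and 20.3%). The remaining TSS share was lower in both MEC libraries in 5 of 6 classes and overlapped in the first, with the widest difference, -0.520 percentage points, between 10000 and 20000 fragments. For the ratio MEC was higher in 5 of 6 classes, by 0.0867 between 40000 and 60000 fragments.

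Split by these classes, the promoter difference of 1.79 consisted of 3.20 ± 0.334 percentage points within classes and -1.41 ± 0.242 from the larger part of MEC fragments in deep nuclei (mean ± SD over the 4 MEC and LEC library pairs, which share libraries). The same split gave -0.203 ± 0.0212 and 0.0683 ± 0.0128 for the remaining share. With classes of estimated complexity in place of usable fragments the within-class parts were 1.70 and -0.129, close to the whole differences. Median complexity was 127041 ± 2396 distinct fragments in MEC against 125337 ± 2695 in LEC (exact permutation p = 0.667). Nuclei weighted to 1 distribution of usable fragments differed by 3.05 percentage points at promoters, and weighted to 1 distribution of complexity by 1.66.

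The nuclei of each library were also ranked by usable fragments and cut into 5 equal groups, which do not match depth between regions. Median usable fragments in the shallowest group were 20627 and 23490 in the MEC pair and 15501 and 14995.5 in the LEC pair. In the deepest they were 98580 and 105753 against 76200.5 and 80984. In the shallowest group the promoter share was 21.1% ± 0.0242 in MEC and 18.7% ± 0.139 in LEC, and in the deepest 10.1% ± 0.0248 and 9.12% ± 0.127. Promoter shares were higher in MEC in 5 of 5 groups, by 2.39, 2.61, 2.03, 1.84 and 0.979 percentage points from the shallowest to the deepest. The remaining share was lower in MEC in 5 of 5, with a difference of -0.361 in the shallowest and -0.0322 in the deepest.

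**Figure D4:**
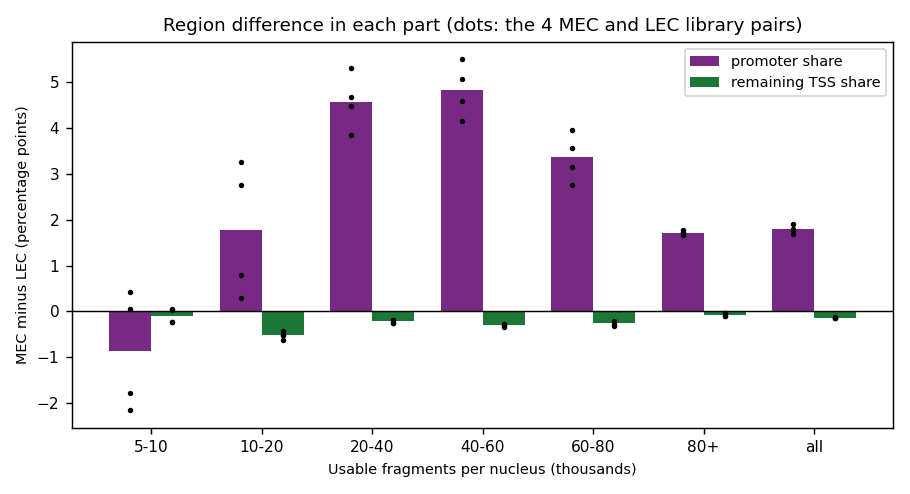
MEC minus LEC difference of group means for the promoter share and the remaining TSS share in each class of usable fragments and over all nuclei, in percentage points. Dots are the 4 differences between single MEC and LEC libraries. Promoter bars reach 4.83 and the longest bar of the remaining windows is -0.520.

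The promoter share varied widely between nuclei and the remaining TSS share little. Over the nuclei of a library the promoter share had an SD of 5.34 to 5.86 percentage points, or 37.8% to 40.3% of its mean, and the remaining share an SD of 0.576 to 0.630, or 10.1% to 11.2% of its mean. Binomial counting noise accounted for 0.0977% to 0.155% of the variance of the promoter share. For the remaining share it was 3.26% to 5.42%, computed as if this net value were a simple count. Its counting noise is larger where promoter fragments lie outside TSS windows.

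The whole distribution at promoters was shifted between regions. The 5th percentile of nuclei was 8.40% ± 0.186 in MEC and 7.37% ± 0.177 in LEC, the median 13.5% ± 0.0751 and 11.4% ± 0.0340, and the 95th percentile 26.8% ± 0.000668 and 23.6% ± 0.166. At each of these the MEC libraries lay above the LEC libraries. The library maxima did not keep this order, at 36.6% and 36.3% against 34.9% and 37.1%. The ranges of single nuclei overlapped widely between the regions. For the remaining share the 5th percentile was 4.33% ± 0.0232 and 4.58% ± 0.0135, the median 5.64% ± 0.00788 and 5.78% ± 0.0116, and the 95th percentile 6.44% ± 0.0856 and 6.68% ± 0.0646, with MEC below LEC at each.

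Nuclei with a high promoter share had a low net remaining TSS share. Spearman's rho between the measures was -0.562 and -0.552 in the MEC pair and -0.444 and -0.475 in the LEC pair, as a description, since both have the same denominator and promoter fragments are subtracted in the second. Promoter share went with the shares of other open classes in the same nucleus, with rho from 0.908 to 0.937 for DNase-sensitive regions, 0.831 to 0.894 for enhancers and 0.649 to 0.742 for peaks. The remaining share had rho from -0.696 to -0.595, -0.640 to -0.539 and -0.730 to -0.644 with the same classes. Of single fragments in both a TSS window and a promoter, 81.0% in MEC and 80.3% in LEC lay in DNase-sensitive regions. Peaks held 92.0% and 85.6% of them. Promoter fragments thus enter the DNase-sensitive and peak shares, over the same denominator, so these values are not independent. Within a library the duplicate share of a nucleus also rose with its promoter share, with rho from 0.575 to 0.651, and had rho from -0.265 to -0.164 with the remaining share. The share of mitochondrial read pairs rose with the promoter share as well, with rho from 0.381 to 0.489, and was 1.38% and 1.54% in MEC nuclei against 0.761% and 0.826% in LEC nuclei. Its part in the region difference was not tested. As duplicates were more frequent in MEC too, sequencing depth and region cannot be told apart in these 4 libraries.

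At a like promoter share the regions were closer in the remaining share at the low end. In nuclei with under 10% of fragments at promoters it was 5.98% ± 0.00159 in MEC and 5.98% ± 0.0126 in LEC, and the libraries overlapped. Between 10% and 15% it was 5.71% ± 0.0119 and 5.75% ± 0.0253, between 15% and 20% 5.49% ± 0.0183 and 5.65% ± 0.0291, and from 20% on 4.94% ± 0.00533 and 5.03% ± 0.0214, with MEC below LEC in each. Nuclei under 10% were 14.9% and 16.7% of all in the MEC pair and 31.1% and 32.2% in the LEC pair. Nuclei from 20% on were 22.1% and 21.0% in MEC and 13.8% and 14.9% in LEC.

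**Figure D5:**
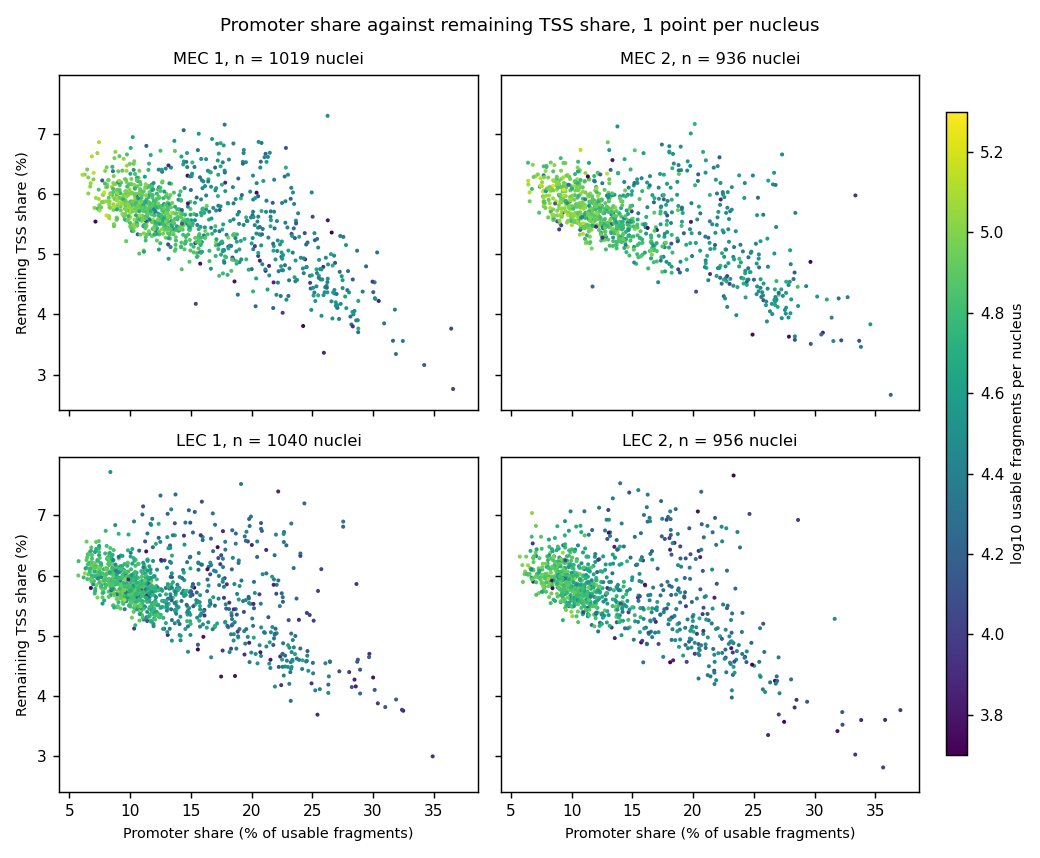
Promoter share against remaining TSS share of every nucleus, 1 panel per library, coloured by log10 usable fragments. Deep nuclei gather at low promoter shares, where the remaining share is near 5.98%. From a promoter share of 20% on, the 5th and 95th percentiles of the remaining share lie as far apart as 3.61% and 6.83% (LEC replicate 2).

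The values on either side of the threshold of 5000 usable fragments were close in the replicate 1 libraries and further apart in the replicate 2 libraries. Called nuclei with 2500 to 5000 fragments had promoter shares of 20.4% and 23.3% in the MEC pair (13 and 16 nuclei) and 19.6% and 21.6% in the LEC pair (23 and 30 nuclei). Those with 5000 to 7500 fragments had 20.5%, 20.4%, 19.6% and 19.1%. Their remaining shares were 4.86%, 4.48%, 5.07% and 4.50% outside the threshold and 5.06%, 5.17%, 5.11% and 5.44% inside it. Barcodes of at least 5000 fragments that the authors had not called as cells had low promoter shares of 5.20% and 5.55% in MEC and 5.20% and 5.39% in LEC. Their remaining shares, 6.04%, 6.11%, 6.23% and 6.24%, were above the pooled values of the nuclei in the same libraries. These are net values, from which a smaller promoter share is subtracted than in nuclei. TSS fragments without a promoter were not estimated for uncalled barcodes, so no direction can be given for them.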

How the data were processed

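Accessible chromatin was measured in 4 libraries. Per the file headers, the deposited tables hold counts of read pairs and usable unique fragments per barcode and region class, and a 0 or 1 cell call by the authors (unit other). Builds are mm10 and GRCm38, per the submitters' processing notes. Which aligner, callers and class annotation were used is not given in the sources used here. The row of reads without a barcode was left out except in total read pairs.

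Shares were summed fragments over summed usable fragments per library. Slopes were least-squares fits over nuclei on log2 usable fragments. Complexity C solved U = C(1 - exp(-N/C)), with U usable and N usable plus duplicate fragments. Regions were compared by exact permutation over 6 assignments of the libraries (scipy 1.17.1, numpy 2.4.6, pandas 2.3.3, Python 3.11.15). The split by depth, weighting, slopes and complexity were tested on simulated data, where the weighting recovered slightly less than the simulated difference. No doublet caller was run. Wilson intervals cover counting error only. Every measure of the promoter and TSS columns is named, whatever its value. The measures and tests were chosen with earlier results of these data known, and the single-fragment analysis, its use in nuclei, ranges of promoter share, on-target denominator and settings for mean slopes after seeing these tables.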

Additional observations from a re-analysis of the deposited data

How the results depend on the processing

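Of 104 recomputed region differences with a test, 96 kept their direction, and none could pass 0.05. Part of these could not turn. A replicate block changes only the test, and leaving out 1 library cannot reverse regions whose libraries do not overlap. The replicate numbers share no stated mouse, and with a replicate block the promoter difference was by construction again 1.79 (smallest exact p 0.5). With all read pairs as denominator (which adds duplicates) the TSS difference became -0.300. With 1 overlap for all libraries the difference in TSS fragments without a promoter was 0.0288. Over on-target fragments the remaining difference was -0.918. Differences of slopes turned for promoters (0.414 with all called barcodes, 0.229 against read pairs, 0.0181 for log2 shares), the remaining share (-0.0161 with all called barcodes) and the ratio (-0.00219 against complexity, -0.0147 as Spearman's rho); the cause was not tested. The mean promoter slope over the 4 libraries, -4.01, was -2.95 with all called barcodes, -4.61 from 10000 fragments, -2.91 with uncalled barcodes and -3.74 against read pairs. That of the ratio, -0.0589, was -0.0426, -0.0685, -0.0474 and -0.0555 under the same settings and -0.0616 against complexity. That of the remaining share, 0.183, was 0.118 with uncalled barcodes and -0.182 for TSS fragments without a promoter. The promoter difference relative to the TSS difference became 109% with uncalled barcodes, 110.03% as means per nucleus and 107% at 1 distribution of fragments. With complexity as depth axis the within-depth parts were 1.70 and -0.129. Below 10000 fragments, few nuclei limit each library.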

Other observations

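Nuclei with a high promoter share fell into a broad range of the remaining TSS share, seen after plotting. Below a promoter share of 10% the remaining share had an SD of 0.265 to 0.293 percentage points over the nuclei of a library, and from 20% on an SD of 0.771 to 0.932. The ranges were unlike in depth, with medians of 66315 to 95460.5 usable fragments in the first and 19685.5 to 30968 in the second. The second also reached up to a promoter share of 37.1%. The part of depth and range width in these SDs was not tested. Among nuclei with at least 15% of fragments at promoters, those with a remaining share of at least 6% were 17.2% and 16.1% in the MEC pair (70 of 407 and 58 of 360) and 24.1% and 22.8% in the LEC pair (71 of 295 and 67 of 294). Of all nuclei they made up 6.87%, 6.20%, 6.83% and 7.01%, a similar part in every library, while nuclei of the same promoter range with a lower remaining share made up 33.1% and 32.3% in MEC and 21.5% and 23.7% in LEC. Both groups are ranges of measured values and not cell types.

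The groups also differed in promoter share itself, which was 18.5%, 19.5%, 19.1% and 18.8% in nuclei with the higher remaining share and 20.5%, 20.6%, 20.4% and 20.2% in the others, in the order MEC replicates 1 and 2 and LEC replicates 1 and 2. Over all nuclei of a library the promoter share had rho from 0.908 to 0.937 with the share in DNase-sensitive regions, and its part in the values that follow was not tested. Nuclei with the higher remaining share had 39.1%, 40.6%, 39.9% and 39.1% of fragments in DNase-sensitive regions, in the same order, where the others had 46.2%, 46.3%, 45.4% and 44.8%. Their peak shares were 29.6%, 31.8%, 26.2% and 26.2%, against 41.5%, 42.6%, 32.5% and 33.4%. Median usable fragments were closer, at 29778, 33343.5, 18970 and 19106 against 30623, 36184.5, 22109.5 and 23471. These values are descriptions without a test.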
